A study of Homo sapiens with 5 samples.

Results

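The genes described here are VGLL1, the co-activators YAP1 and WWTR1 (TAZ), the transcription factors TEAD1, TEAD3 and TEAD4, the target and feedback genes AMOTL2, ANKRD1 and LATS2, and the LIM protein gene AJUBA. These 10 of the 27933 gene symbols in the deposited table were found by symbol. VGLL1 was picked because it was higher in the knockdown libraries, so its difference between groups is given as a description and has no test. The other 9 were listed by name.

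RNA of HaCaT cells, an established human keratinocyte line grown in DMEM with fetal bovine serum, was sequenced in 2 control libraries (labelled NC) and 3 AHNAK knockdown libraries (labelled KD, with table columns named si). AHNAK, the targeted gene, codes for a giant scaffold protein found under the cell membrane and in the cytoplasm. The design text of the series calls the cells a knockout where the sample labels say knockdown. The labels give neither the interfering RNA, its dose and the time of harvest nor whether replicates were separate cultures. The p-values thus measure the spread between these libraries alone, and it may be technical. Values are FPKM, fragments counted per transcript length and per library total, so levels of different genes can be set side by side. Values are listed in the order of the replicate numbers, control 1 and 2, then knockdown 1, 2 and 3. Each difference was taken as knockdown less control after a log2(FPKM + 0.5) transform, which shrinks changes of low genes.

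The Hippo pathway is a kinase cascade that responds to cell density, cell shape and junctions. Its last kinases, LATS1 and LATS2, phosphorylate YAP and TAZ and keep them in the cytoplasm. When they are not phosphorylated, YAP and TAZ enter the nucleus and bind TEAD factors, which hold DNA at a short element and cannot activate transcription well on their own. Vestigial-like proteins such as VGLL1 and VGLL4 bind the same face of TEAD as YAP and TAZ. In basal keratinocytes YAP and TAZ are known for supporting proliferation. Much of their control is through phosphorylation and location, which transcript levels do not measure.

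The TEAD element is shown because 6 of the 8 genes with a promoter sequence held it. The 6-base element is GGAATG, or CATTCC on the other strand, and the 2 forms cannot overlap in 1 place. It was searched on both strands of windows of 300 bases, 250 before and 50 from the transcription start on, taken from RefSeq (GRCh38.p14). Of 35116 such windows over all genes, 14% held at least 1 match, against 6 of the 11 windows of these genes. The capitals mark the element, each stretch is written along the strand of its gene, and the first is the whole upstream window of VGLL1 up to the first exon base that GENCODE annotates.
VGLL1, chrX:136531965-136532151, plus strand: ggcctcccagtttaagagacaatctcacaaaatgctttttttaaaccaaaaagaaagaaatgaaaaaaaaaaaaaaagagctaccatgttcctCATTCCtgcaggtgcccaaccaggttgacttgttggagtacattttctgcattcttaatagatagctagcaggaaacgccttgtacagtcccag
YAP1, chr11:102110273-102110302, plus strand: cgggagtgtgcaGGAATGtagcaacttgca
ANKRD1, chr10:90921290-90921319, minus strand: atcaccaccaaaGGAATGgccctctcacat
ANKRD1, chr10:90921198-90921227, minus strand: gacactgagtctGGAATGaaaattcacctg
AMOTL2, chr3:134374499-134374528, minus strand: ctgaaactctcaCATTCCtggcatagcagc
AJUBA, chr14:22976884-22976913, minus strand: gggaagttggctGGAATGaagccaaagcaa
LATS2, chr13:21061560-21061589, minus strand: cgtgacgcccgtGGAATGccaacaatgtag

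Each stretch other than that of VGLL1 is 30 bases centred on the element. ANKRD1 alone among these genes held it more than once, as did 1.36% of all windows. The element began 157 bases before the RefSeq start of VGLL1, 162 before that of YAP1 and 220 and 128 before that of ANKRD1. It began 69 bases before a start of AMOTL2 and 59 before a start of AJUBA, each the downstream one of 2 listed for its gene, and in LATS2 it lay after the start. WWTR1 and TEAD3 held no match in these windows. TEAD1 and TEAD4 were not matched in the promoter table. A match is a description of letters and shows no binding.

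AHNAK itself read 205 and 242 FPKM in the control libraries against 113.9, 69.6 and 115.3 FPKM in the knockdown libraries. It was lower in every knockdown library (difference -1.19, limma adjusted p = 0.372), and lowest in knockdown replicate 2. Limma called 0 of 12196 genes at an adjusted p under 0.05, while 1427 (11.7%) had an unadjusted p under 0.05. In 32.0% of the genes tested the groups did not overlap. All 10 genes averaged at least 1 FPKM and entered that fit, but no p is used for VGLL1. The 5 libraries fall into sets that share value steps in the table, set A with control replicate 1 and knockdown replicates 1 and 3, set B with replicate 2 of each group, and differences are also given within each set. Log2 deviations of genes followed GC content at Spearman's rho of 0.605 in knockdown replicate 1 and -0.549 in knockdown replicate 3, and between 0.002 and 0.185 in the other libraries. Keratinocyte markers (8 genes, KRT5 and KRT14 among them) summed to 4181 to 7666 FPKM per library. Marker lists of fibroblasts, melanocytes, immune cells and endothelium summed to at most 7.37 FPKM, and the fibroblast list is taken up with VGLL1.

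VGLL1 transcripts were about 2 times as abundant in the knockdown libraries as in the controls. VGLL1 (ENSG00000102243.12, chromosome X, 136532152 to 136556807, plus strand, positions here and below from GENCODE 29 on GRCh38) encodes a TEAD cofactor that has no DNA-binding domain of its own and is known from trophoblast and some squamous and urothelial cells. Control libraries held 11.3 and 9.89 FPKM of it, knockdown libraries 18.8, 25.1 and 21.2 FPKM. All knockdown libraries lay above both controls, and the highest was knockdown replicate 2, where AHNAK was lowest. Knockdown replicate 2 was also the only knockdown library of set B, and a relation between the levels of AHNAK and VGLL1 was not tested. Averages were 10.6 ± 0.997 FPKM for controls (SD, n = 2) and 21.7 ± 3.18 FPKM for knockdown (SD, n = 3), 2.05 times as much. On the log2 scale VGLL1 was 0.99 higher (SE 0.16), and 0.79 higher within set A and 1.30 within set B. By this difference 79 of the 12196 tested genes stood higher, and 24 of the 8677 that averaged 5 FPKM or more. In bulk RNA, a change in the number of cells that hold a transcript and a change of its level per cell cannot be told apart. MIR934, a microRNA gene in an intron of VGLL1, was listed at 0 in every library. Whether these libraries could capture so short an RNA was not tested, so the 0 is not read as absence.

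**Figure D1:**
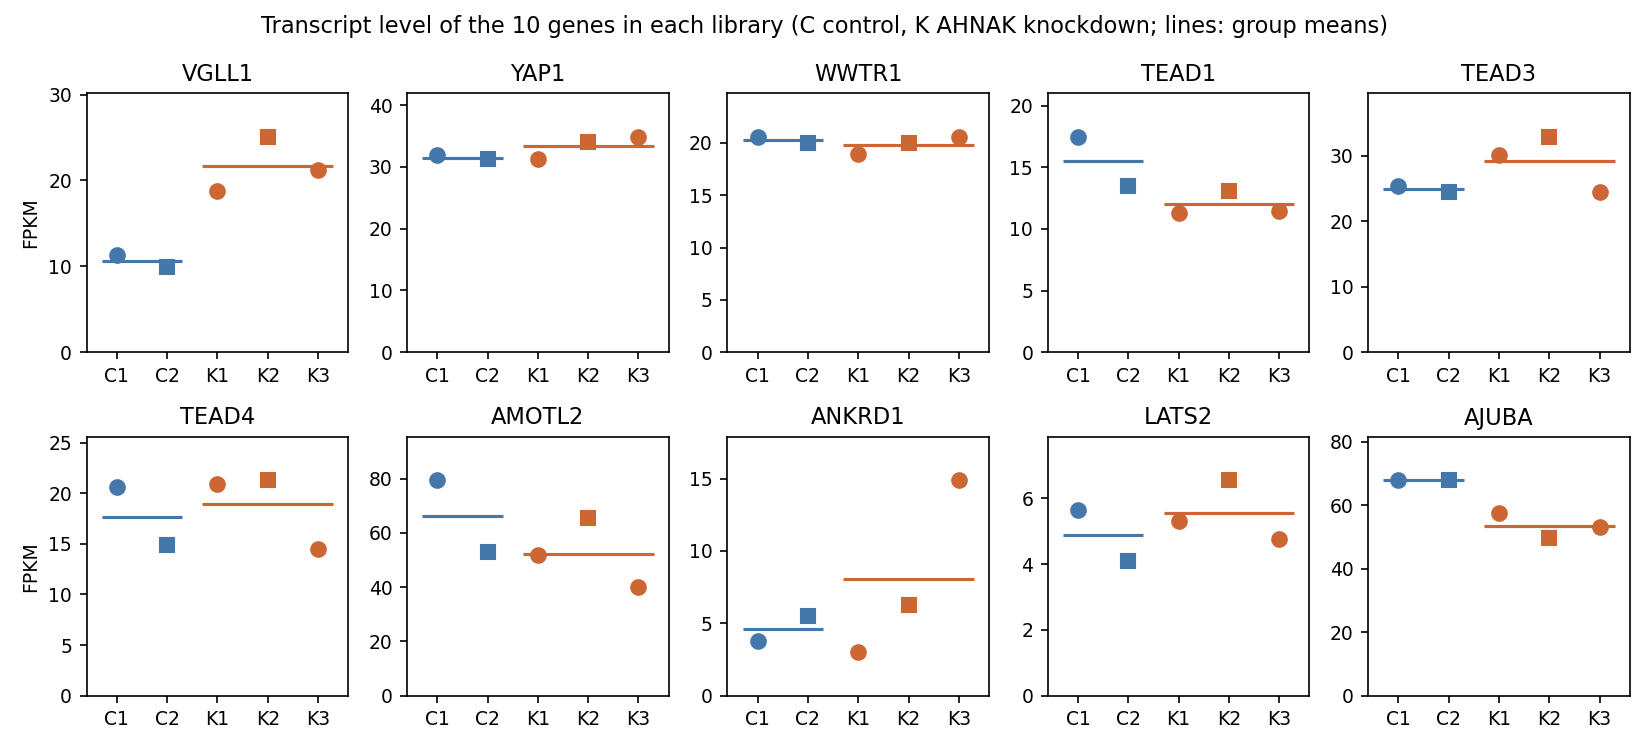
FPKM of the 10 genes in each library, with blue for controls (C1, C2), orange for AHNAK knockdown (K1 to K3), squares for replicate 2 and lines at group means. VGLL1 was picked for its difference (9.89 to 11.3 against 18.8 to 25.1 FPKM), and of the other 9 genes TEAD1 and AJUBA have groups that do not overlap, as do 32.0% of all genes tested.

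YAP1 and WWTR1, the co-activators that compete with VGLL1 for TEAD, differed by less than the spread between libraries. YAP1 (ENSG00000137693.13, chromosome 11, 102110461 to 102233423, plus strand) read 31.9 and 31.2 FPKM in control and 31.2, 34.0 and 34.9 FPKM in knockdown libraries, and the ranges overlap. Its log2 difference was 0.08 (SE 0.12, 95% confidence interval -0.21 to 0.37, limma adjusted p = 0.811). WWTR1 (ENSG00000018408.14, chromosome 3, 149517235 to 149736714, minus strand), the gene of TAZ, read 20.6 and 20.0 FPKM in control and 18.9, 20.0 and 20.6 FPKM in knockdown libraries. These groups overlap, and WWTR1 differed by -0.03 on the log2 scale (SE 0.12, interval from -0.32 to 0.25, limma adjusted p = 0.927). An antisense gene, WWTR1-AS1, overlaps WWTR1 exons and reached at most 0.695 FPKM. Another, AP000942.2, overlaps YAP1 exons and has no listed value, and the counting strand is not given.

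The share of WWTR1 in the co-activator transcripts varied little between libraries. WWTR1 made up 39.2% and 39.1% of the summed YAP1 and WWTR1 FPKM in controls, against 37.6%, 37.0% and 37.1% in knockdown. Every knockdown library lay below both controls, by 1.89 percentage points on average (exact permutation test, two-sided, p = 0.1, the smallest that 10 splits allow; 0.35 after Benjamini-Hochberg adjustment over 7 such tests). Set A gave -1.82 points and set B -2.08. VGLL1 itself came to 0.204 ± 0.0158 of the summed YAP1 and WWTR1 level in controls (SD, n = 2) and to 0.407 ± 0.0501 in knockdown (SD, n = 3), with no test because VGLL1 was picked on this contrast.

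Among the TEAD factors, TEAD1 was lower in all 3 knockdown libraries and TEAD3 was higher in 2 of the 3, and neither passed. TEAD1 (ENSG00000187079.16, chromosome 11, 12674591 to 12944483, plus strand), a widely expressed member of the family, read 17.5 and 13.5 FPKM in control libraries and 11.3, 13.1 and 11.5 FPKM under knockdown. The groups did not overlap, but control replicate 2 and knockdown replicate 2 were close together, and control replicate 1 stood highest. On the log2 scale the groups differed by -0.35 (SE 0.16, limma adjusted p = 0.454), by -0.60 within set A but -0.04 within set B. Leaving out control replicate 1 gave -0.17, and leaving out control replicate 2 gave -0.54.

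TEAD3 (ENSG00000007866.20, chromosome 6, 35473597 to 35497076, minus strand) values were 25.3 and 24.4 FPKM for controls, then 30.1, 32.9 and 24.5 FPKM for knockdown. Knockdown replicate 3 lay within the controls and the other knockdown libraries above them, and the log2 difference was 0.22 (SE 0.16, limma adjusted p = 0.612), with 0.13 without knockdown replicate 2 and 0.33 without knockdown replicate 3. TEAD4 (ENSG00000197905.8, chromosome 12, 2959330 to 3040673, plus strand), known for its role in trophoblast, had 20.6 and 14.9 FPKM as control and 20.9, 21.3 and 14.5 FPKM as knockdown values. Its groups overlap (difference 0.09, SE 0.22, limma adjusted p = 0.889), and it was low in control replicate 2 and knockdown replicate 3. TEAD3 and TEAD4 had the highest GC content of the 10 genes (59.8% and 60.4% of the longest transcript) and TEAD1 one of the lowest (41.3%). Knockdown replicate 3, in which GC-rich genes were low, gave the lowest knockdown value of both TEAD3 and TEAD4. TEAD1 read 11.3 FPKM in knockdown replicate 1 and 11.5 FPKM in knockdown replicate 3, where the GC trends had opposite signs (rho 0.605 and -0.549). The part of GC content in these values was not tested. After each library was corrected for GC content and length, the differences were -0.34 for TEAD1, 0.29 for TEAD3 and 0.12 for TEAD4, and none of the 3 passed.

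**Figure D2:**
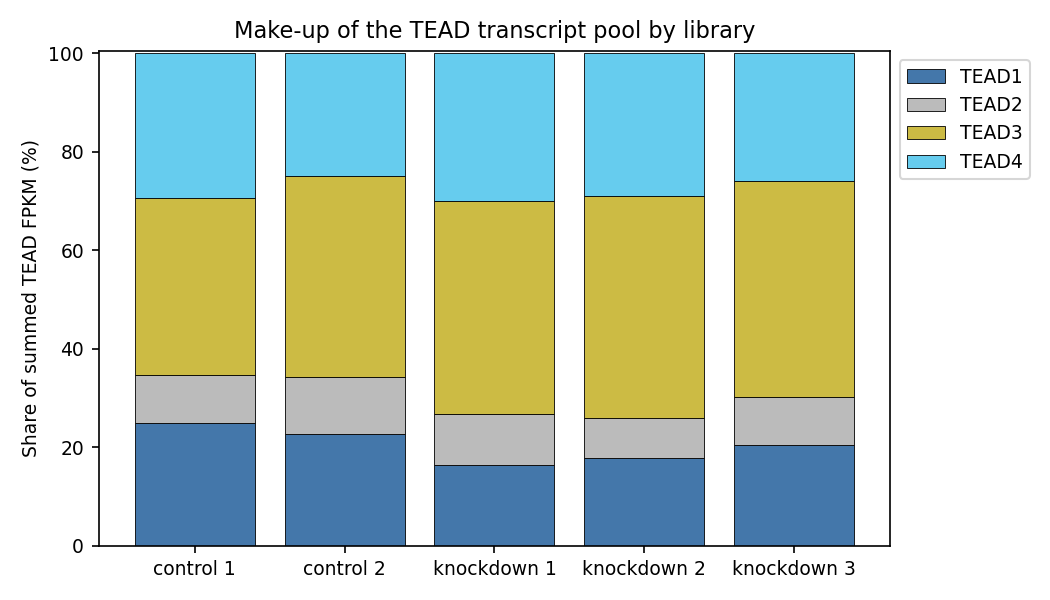
Share of each TEAD gene in the summed FPKM of TEAD1 to TEAD4, in percent, as 1 stacked bar per library. TEAD1 takes 25.0% and 22.6% in the controls and 16.3% to 20.5% in knockdown, and TEAD3 36.0% and 40.9% against 43.3% to 44.9%.

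Taken as 1 pool, TEAD transcripts held less TEAD1 and more TEAD3 in every knockdown library than in either control. The summed FPKM of TEAD1 to TEAD4 was 65.0 ± 7.43 in controls (SD, n = 2) and 66.3 ± 9.13 in knockdown (SD, n = 3), a difference well inside the spread. TEAD1 made up 25.0% and 22.6% of it in control libraries, against 16.3%, 17.9% and 20.5% in knockdown libraries (exact permutation test, two-sided, p = 0.2, adjusted 0.467). TEAD3 made up 36.0% and 40.9%, against 43.3%, 44.9% and 43.8% (exact permutation test, two-sided, p = 0.1, adjusted 0.35). With 10 splits neither share could pass. TEAD2 held 8.11% to 11.6% and TEAD4 24.9% to 30.1% over all libraries, with overlap. The TEAD1 share differed by -6.59 points in set A and by -4.65 in set B.

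Target and feedback genes went in different directions within the knockdown group. AMOTL2 (ENSG00000114019.14, chromosome 3, 134355874 to 134375479, minus strand), an angiomotin that binds YAP and is itself a YAP target, varied widely, with 79.5 and 53.0 FPKM among controls and 51.8, 65.5 and 40.1 FPKM under knockdown. Control replicate 1 was highest and knockdown replicate 3 lowest, and the groups overlap (difference -0.33, SE 0.25, limma adjusted p = 0.629). RPL39P5, a transcribed pseudogene with no listed value, overlaps AMOTL2 exons on the same strand, and reads may be shared with it. Set A gave -0.80 and set B 0.30, and leaving out a library gave values from -0.62 (without control replicate 2) to -0.04 (without control replicate 1), with -0.51 without knockdown replicate 2 and -0.15 without knockdown replicate 3.

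ANKRD1 (ENSG00000148677.6, chromosome 10, 90912096 to 90921276, minus strand), a cardiac ankyrin repeat protein and one of the most used YAP reporters, had control values of 3.78 and 5.48 FPKM and knockdown values of 3.04, 6.29 and 14.9 FPKM. Knockdown replicate 3 stood far above the rest and knockdown replicate 1 below both controls. The log2 difference of 0.50 (SE 0.56, limma adjusted p = 0.734) rested on knockdown replicate 3: without it the value was -0.05. LATS2 (ENSG00000150457.8, chromosome 13, 20973032 to 21061547, minus strand), the kinase that restrains YAP and is induced by it, had control values of 5.64 and 4.10 FPKM and knockdown values of 5.32, 6.55 and 4.75 FPKM. Its groups overlap (difference 0.17, SE 0.19, limma adjusted p = 0.734), and the sets gave opposite signs, -0.15 for A and 0.62 for B.

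AJUBA (ENSG00000129474.15, chromosome 14, 22971174 to 22982642, minus strand), a LIM-domain protein of junctions that binds and restrains LATS kinases, was lower in every knockdown library and, of the 9 genes other than VGLL1, had the smallest p. Both controls held 67.9 FPKM, while knockdown libraries held 57.6, 49.6 and 53.1 FPKM. Averages were 67.9 ± 0.0332 FPKM for controls (SD, n = 2) and 53.4 ± 3.97 FPKM for knockdown (SD, n = 3), or 0.787 times as much. On the log2 scale AJUBA differed by -0.35 (SE 0.13, interval at the 95% level from -0.65 to -0.04), by -0.29 within set A and -0.45 within set B. It had an unadjusted p of 0.0313 and did not pass over all genes (limma adjusted p = 0.400). AL132780.3 overlaps AJUBA exons on the same strand, and reads may be shared with it. Across alternative fits the adjusted p ran from 0.0398, with limma array weights, to 0.974.

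Counted together, the 9 genes other than VGLL1 were close to the background of the table. Of these 9, 2 had groups that did not overlap, both lower (22.2%, against 32.0% of all genes tested), and 1, AJUBA, had an unadjusted p under 0.05 (11.1%, against 11.7%). Over all genes tested, 15.8% lay lower and 16.2% higher without overlap, and 5.48% and 6.22% had such a p as lower and as higher. In all, 5 were higher and 4 lower, with a median difference of 0.08 against 0.01 over all genes tested. The sign was the same in both sets for 6 of the 9 (66.7%, against 55.7% of all genes tested), and the median was -0.15 within set A and 0.18 within set B. YAP1 and WWTR1, with differences near 0, were among these 6.

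**Figure D3:**
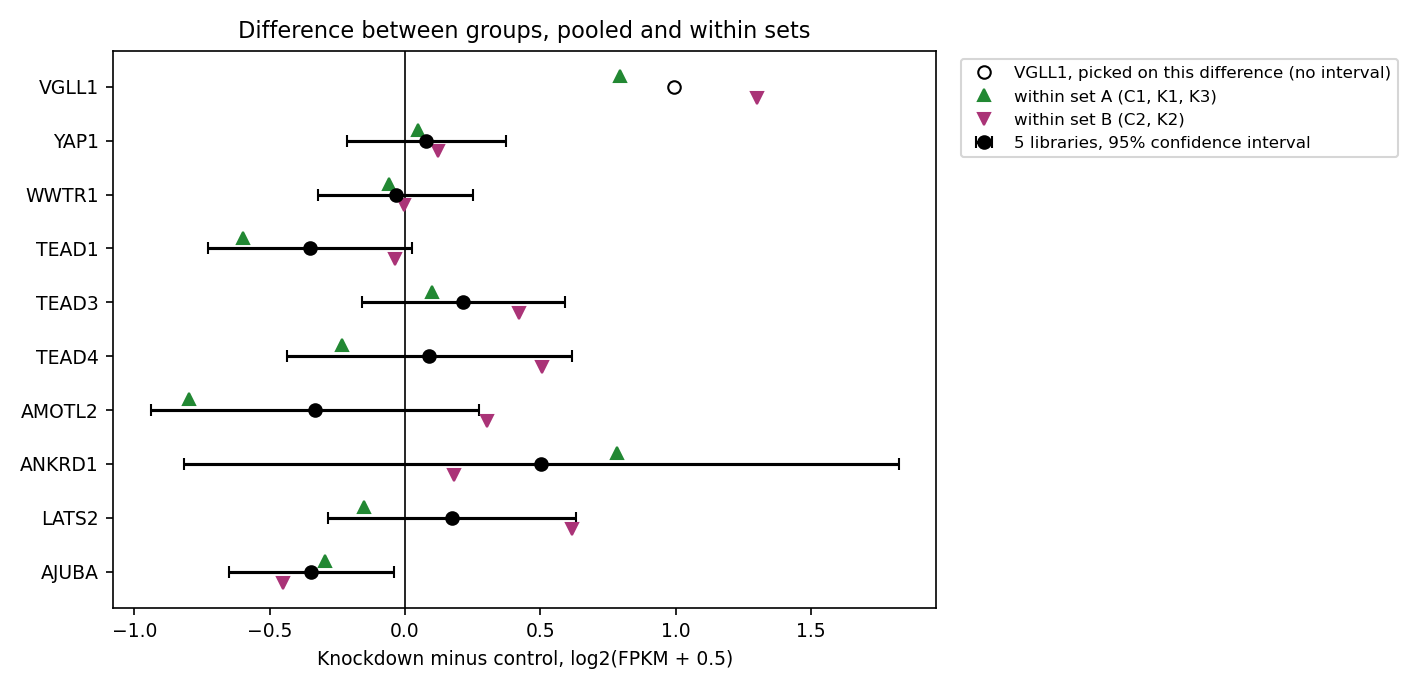
Log2 difference (knockdown minus control) of the 10 genes, with a 95% confidence interval for all but VGLL1, which was picked on this difference, and the difference within set A (C1, K1, K3) and set B (C2, K2). The interval of AJUBA leaves out 0 (-0.65 to -0.04) and those of the other 8 hold it, and AMOTL2, TEAD4 and LATS2 have opposite signs in the sets.

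In level, AJUBA and AMOTL2 led in both groups, with ranges that overlap. Control levels then ran from YAP1 (31.5 FPKM on average) through TEAD3 (24.9), WWTR1 (20.3), TEAD4 (17.7) and TEAD1 (15.5) to VGLL1 (10.6), LATS2 (4.87) and ANKRD1 (4.63). Of these neighbours, WWTR1 with TEAD4, TEAD4 with TEAD1 and LATS2 with ANKRD1 had overlapping ranges. VGLL1 lay below every TEAD factor of the 10 in the controls. In knockdown its average of 21.7 FPKM placed it between TEAD3 (29.2) and WWTR1 (19.8), with ranges that overlap on each side.

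The rest of the pathway was described from a list of 45 other genes, of which 39 were tested. Of 13 kinases and their activators, which carry the signal from the membrane to LATS, 7 were higher and 6 lower, with a median difference of 0.02. The sets ran opposite ways, with 11 of the 13 lower in set A (median -0.23) and 3 lower in set B (median 0.24). Over all 12196 genes tested, 6265 were lower in set A and 6083 in set B. The sign was kept by 3 of the 13 (23.1%, against 55.7% of all genes tested). MAP4K4, a kinase that can phosphorylate LATS, was the 1 of these 13 without overlap (7.69%, against 32.0% of all genes tested), at 38.5 and 41.1 FPKM in controls and 36.4, 26.1 and 29.3 FPKM in knockdown (difference -0.39, limma adjusted p = 0.440). TAOK3 (0.11) and TAOK1 (-0.12), kinases upstream of the cascade, had the next smallest p among them. Of the 13, 0 had an unadjusted p under 0.05, against 11.7% of all genes tested.

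Of 9 junction, polarity and LIM genes, 7 were tested and 5 were lower, with a median of -0.05, and 0 were without overlap, against 32.0% of all genes tested. All 7 were lower in set A (median -0.19) and 1 in set B (median 0.08), so 1 kept its sign (14.3%, against 55.7% of all genes tested). LIMD1, a relative of AJUBA, differed by -0.27, DLG5 by 0.22 and the protocadherin FAT1 by -0.25. Among the remaining TEAD and VGLL genes, TEAD2 was at 6.87 ± 0.105 FPKM for controls (SD, n = 2) and 6.21 ± 0.927 FPKM in knockdown (SD, n = 3). VGLL4, which represses TEAD targets and was the next most abundant of its family, was at 5.27 and 6.04 FPKM in controls and 6.10, 4.94 and 4.50 FPKM in knockdown (difference -0.12, limma adjusted p = 0.784). VGLL2 and VGLL3 stayed at or under 0.295 FPKM in every library. VGLL1 was thus the most abundant VGLL transcript in each library, at 1.64 to 2.14 times VGLL4 in controls and 3.08 to 5.08 times in knockdown.

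Genes widely used as YAP and TAZ targets, other than AMOTL2, ANKRD1 and LATS2, were mostly lower in knockdown, more so in set A. AMOTL2 was lower as well (-0.33), while ANKRD1 (0.50) and LATS2 (0.17) were higher. Of 19 such genes besides AMOTL2, ANKRD1 and LATS2, 17 were tested. In knockdown 13 were lower and 4 higher (76.5% lower, against 48.7% of all genes tested). The median difference was -0.25 against 0.01 over all genes. The 19 genes were chosen with earlier results of these data known, so the shares given here are descriptions and no test of the list. The groups did not overlap in 7 of them as lower and in 3 as higher (58.8% together, against 32.0% of all genes). Unadjusted p under 0.05 was seen in 4 as lower and 2 as higher (35.3% together, against 11.7% of all genes), and 0 passed over all genes (smallest limma adjusted p = 0.383). CCDC80 is in both counts as higher, and its difference rests on a value listed at 0 in control replicate 2 (set A 0.49, set B 7.81). TGFB2, among the 4 lower, had groups that overlap and differed by 0.05 in set B. Set A gave a median of -0.39 and set B one of -0.06, where 13 and 10 of the 17 were lower. Without control replicate 1 the median was -0.18, with 0 of the 12 lower and 2 of the 5 higher genes at an unadjusted p under 0.05, and 1 target, CCDC80, which is listed at 0 in the remaining control, passed the adjusted threshold in limma. Without control replicate 2 it was -0.38.

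The lower targets of smallest p were GADD45A, CRIM1 and DOCK5. GADD45A, a growth arrest and DNA damage gene, was at 85.6 and 66.7 FPKM in controls and at 40.3, 49.2 and 52.3 FPKM in knockdown (difference -0.68, SE 0.18, limma adjusted p = 0.383). CRIM1, a membrane protein that binds bone morphogenetic proteins, was at 32.4 and 30.2 FPKM in controls and at 24.4, 20.4 and 21.1 FPKM in knockdown. Set A gave -0.50 and set B -0.55 for it (limma adjusted p = 0.387). DOCK5, an activator of Rac, was at 10.8 and 10.1 FPKM against 7.79, 7.52 and 7.26 FPKM (set A -0.49, set B -0.40, limma adjusted p = 0.387). For these 3 genes every knockdown library lay below both controls.

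Other targets did not follow. CCN1 (listed as CYR61), a matricellular protein and classical YAP target, was at 26.8 and 25.9 FPKM in controls and at 28.5, 30.0 and 38.6 FPKM in knockdown, higher in each (difference 0.28, limma adjusted p = 0.539). CCN2 (listed as CTGF), its close relative, was low throughout, at 0.675 and 0.473 FPKM against 0.543, 0.542 and 0.476 FPKM, and was not tested. IGFBP3, which binds insulin-like growth factors, was at 635 and 506 FPKM in controls and at 748, 1100.3 and 824 FPKM in knockdown (difference 0.63, limma adjusted p = 0.392).

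**Figure D4:**
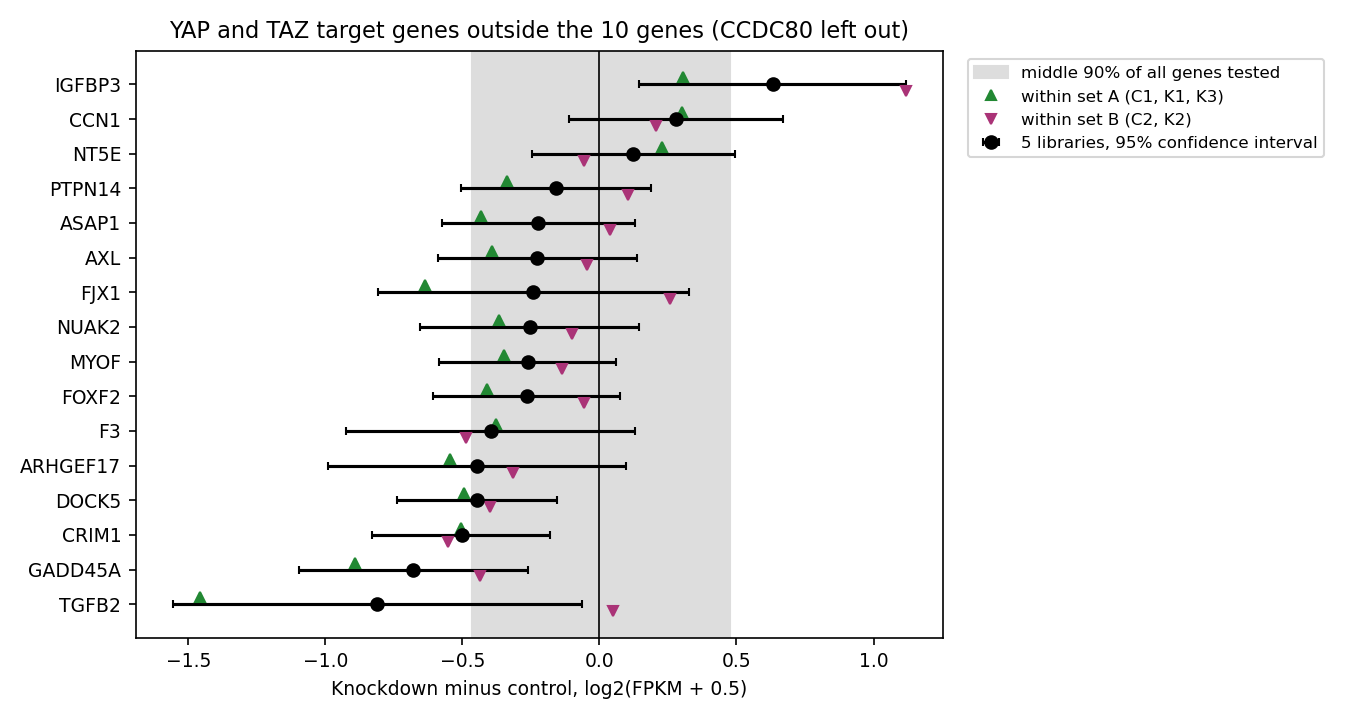
Log2 difference (knockdown minus control) of 16 tested YAP and TAZ targets, with 95% confidence intervals, values within set A (C1, K1, K3) and set B (C2, K2), and a grey band for the middle 90% of all genes tested. GADD45A, CRIM1 and DOCK5 are lower in both sets, and TGFB2 is lower in set A and not in set B (-1.46 against 0.05); CCDC80 is left out because it is listed at 0 in control replicate 2.

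Genes whose profile over the 5 libraries was most like that of VGLL1 were found by Pearson's r of log2(FPKM + 0.5), among 8676 other genes that averaged 5 FPKM or more. They were PARP16 (r = 0.9987), an ADP-ribosyltransferase of the endoplasmic reticulum, SOCS6 (0.9982), of the cytokine signalling suppressor family, GPBP1L1 (0.9979), PP7080 (0.9968) and the butyrophilin BTN3A2 (0.9967). PARP16 was at 3.99 and 3.70 FPKM in controls and at 5.73, 6.77 and 5.97 FPKM in knockdown. With 5 libraries several genes reach such values: 27 of them had r of at least 0.99. All 5 genes named are higher in every knockdown library, which follows from the likeness to VGLL1.

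From lowest to highest VGLL1 the libraries ran control replicate 2, control replicate 1, then knockdown replicates 1, 3 and 2, and 275 of the 8676 genes (3.17%) had the same order of libraries. IGFBP3 and CCDC80 among the targets and DCN and LUM among the fibroblast markers had this order. DCN and LUM averaged under 5 FPKM, so they are not among the 8676 genes of that share. LUM was near the floor, at 0.19 and 0 FPKM for controls and at 0.232, 0.842 and 0.556 FPKM for knockdown, and was not tested. CCDC80, a secreted matrix protein, was listed at 35.1 and 0 FPKM for controls and at 46.7, 111.6 and 52.3 FPKM for knockdown. DCN (decorin) was listed at 1.37 and 0 FPKM, against 1.83, 5.25 and 2.25 FPKM. Both were 0 in the control library with the least VGLL1 and highest in the knockdown library with the most.

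The 5 fibroblast markers together came to 3.51 and 2.47 FPKM in the controls and to 3.87, 7.37 and 4.57 FPKM in knockdown. DCN alone made up 1.37 and 0 FPKM of these sums in the controls and 1.83, 5.25 and 2.25 FPKM in knockdown. The sum thus rose with DCN and, at a lower level, with LUM, but not with every gene of the list. COL1A1 had the reverse order, and COL1A2 and PDGFRB were at or near 0 (at most 0.151 FPKM). KRT14, KRT6A and DSP of the 8 keratinocyte markers, and AJUBA among the genes described, ran in exactly the reverse order, as did 241 of the 8676 genes (2.78%). KRT14, a keratin of basal keratinocytes, had 2337 and 3072 FPKM among controls and 2096, 1184 and 1814 FPKM under knockdown. The 8 keratinocyte markers together came to 6201 and 7666 FPKM in controls and to 5826, 4181 and 5162 FPKM in knockdown. The part of these markers and of the fibroblast list in the values of VGLL1 and AJUBA was not tested.

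**Figure D5:**
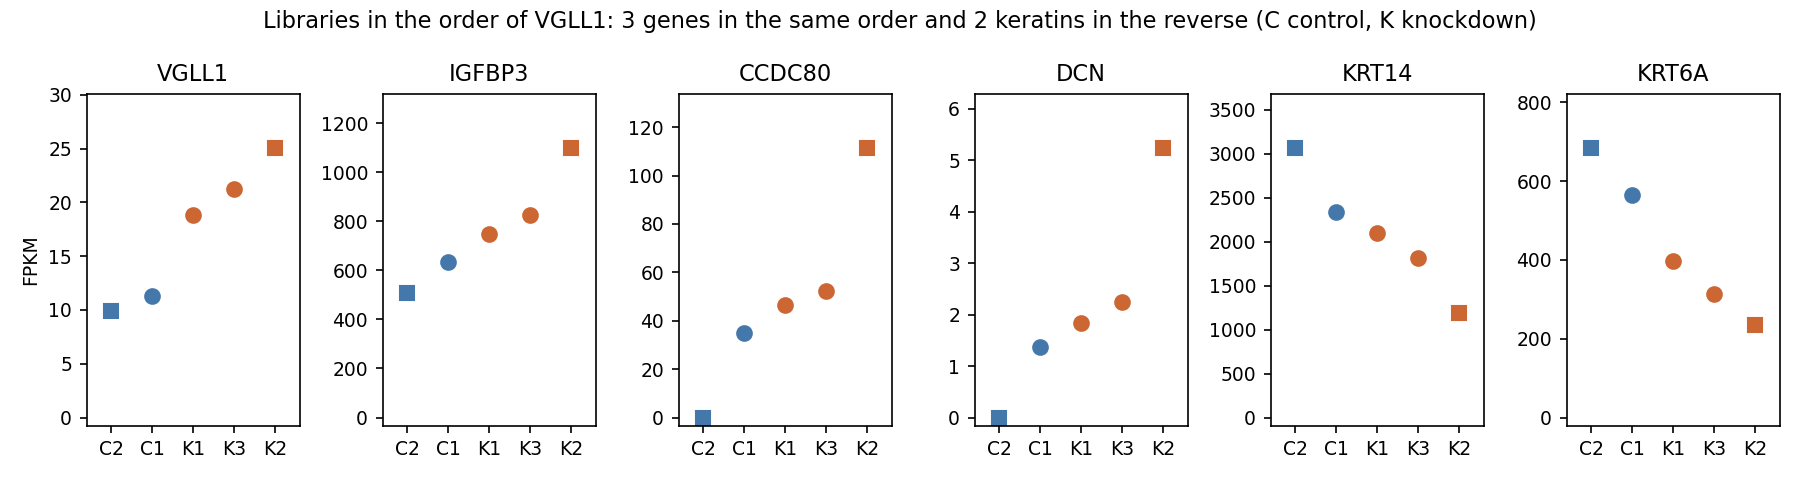
FPKM of VGLL1, IGFBP3, CCDC80, DCN, KRT14 and KRT6A, with the libraries placed in the order of VGLL1 (C control, blue; K knockdown, orange; squares for replicate 2). IGFBP3, CCDC80 and DCN follow that order, CCDC80 and DCN from 0 in control replicate 2, and both keratins run in reverse. The genes beside VGLL1 were chosen after their values were seen. Only 3 of the 8 keratinocyte markers run in reverse, and KRT5, not shown, has groups that overlap. The fibroblast marker COL1A1, also not shown, runs in reverse.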

How the data were processed

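The authors deposited 1 table of FPKM values with a row per gene symbol and a column per library, matched to samples by the labels' descriptions. Per the submitters' processing notes, HISAT2 2.0.1 and StringTie 2.0.6 were used, and builds GRCh38 and mm9 are named without a role; annotation and counting strand are not stated there. FPKM carries no read totals, so the depth is unknown. Log2(FPKM + 0.5) was fitted with limma 3.58.1 in R 4.3.3 (trend, no covariate) where the mean reached 1 FPKM (12196 genes), with Benjamini-Hochberg adjustment over all of them and a threshold of 0.05; the step was tested on simulated data. Shares were compared by exact permutation over the 10 splits of libraries. Sets A and B are libraries in which over 10% of low genes (under 0.3 FPKM) keep 1 ratio of values. Positions, lengths and GC content came from GENCODE 29 by symbol (96.5% of tested genes). The genes and lists were chosen with earlier results of these data known. Named were AHNAK, the 10 genes, the 3 pathway genes of smallest p per role, CCN1, CCN2, the TEAD and VGLL relatives and the 5 genes most like VGLL1. MYOF, ARHGEF17 and other targets appear in a plot, and TGFB2, IGFBP3, CCDC80 and the markers were singled out after their values were seen.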

Additional observations from a re-analysis of the deposited data

How the results depend on the processing

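VGLL1 stayed higher in all 17 alternative fits, between 0.89 and 1.15 on the log2 scale (0.89 to 1.09 with 1 library left out). It was picked for its rise in these same libraries, and every knockdown value lay above both controls. Leaving out 1 library could thus not change its sign, and these fits describe only the size of the difference. For the other genes, too, part of the fits could not change a sign. Fits with no filter, at a mean of at least 5 FPKM and without a trend keep the main log2 difference by construction. TEAD1 and AJUBA, whose groups did not overlap, could not change sign with 1 library left out. The other 9 genes kept their sign in 147 of 153 fits, a count that includes these fixed outcomes. The exceptions were WWTR1 without knockdown replicate 1 (0.0008), TEAD4 without control replicate 2 (-0.14) and knockdown replicate 2 (-0.0038), ANKRD1 without knockdown replicate 3 and with the replicate block (-0.05 in each, since the block removes that library), and LATS2 without control replicate 2 (-0.03). AJUBA passed only with limma array weights (-0.42, adjusted p = 0.0398), where knockdown replicate 2 had a weight of 3.98 and knockdown replicate 3 one of 0.257.

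The count of these 9 at an unadjusted p under 0.05 was 2 with array weights, where 4285 of all 12196 genes had such a p. It was 0 with the replicate block (977 of 12196 genes) and 0 with a term for the set (828 of 12196). Under the correction for GC and length it was 3 (2145 of 11768 genes). With knockdown replicate 1, 2 or 3 left out it was 1, 0 and 2, against 2092, 740 and 1772 of 12196 genes. The count of pathway genes was 2 to 6 with 1 library left out, 2 of them without control replicate 1 and 3 without control replicate 2. Genes past the adjusted threshold numbered 1 with a pseudocount of 1, 1 without a trend, 1428 with array weights (5 of them among the 17 targets) and 0 to 9 with 1 library left out. Genes with an unadjusted p under 0.05 numbered 862 at a mean of at least 5 FPKM (fewer genes tested), 4285 under array weights, 828 under the set term, 2145 under the correction for GC and length and 564 to 2092 with 1 library left out. Only 2 replicate numbers are shared between the groups, and the labels do not say that they pair cultures, so the block is an alternative only. The cause of these changes was not tested. With 1 library left out, the difference in the TEAD1 share ran from -6.76 to -4.33 percentage points and that in the WWTR1 share from -2.07 to -1.76, while WWTR1, TEAD4, ANKRD1 and LATS2 reached -0.06, 0.32, 1.01 and 0.38 at the other end of their ranges. With no read totals, what depth limits cannot be given.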
